A study of Mus musculus with 24 samples.

Results

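Messenger RNA of 7 genes that mark pyramidal neurons of the CA1 field was followed across mice with and without the lysine acetyltransferase gene Kat2a. The genes are Wfs1, Fibcd1, Pex5l, Fam84a, Mpped1, Pou3f1 and Man1a, a list of names known from the hippocampal literature that was looked up by symbol. All 7 were found, among 27576 genes with at least 1 read and 38355 genes listed. Poly(A) RNA of dissected CA1 tissue was sequenced from C57BL/6J mice, 3 to 5 months old, in a study of memory formation. Conditional knockout (cKO) mice carried floxed Kat2a together with a Cre recombinase driven by the CamKII-alpha promoter, and control mice carried the same floxed Kat2a without the Cre. The groups were naive cKO mice (6 libraries), naive control mice (6), cKO mice after 15 min of novelty exposure (7) and control mice after the same 15 min (5). The CamKII-alpha promoter is active in excitatory forebrain neurons, so glia and interneurons in the dissected tissue keep the floxed gene. No group carried the Cre without floxed Kat2a, so the Cre and the loss of Kat2a cannot be told apart.

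CA1 pyramidal neurons are the main output cells of the hippocampus, and they differ from their CA3, CA2 and dentate neighbours by a set of genes that remain on in the adult. Those genes serve unlike tasks. Pex5l encodes TRIP8b, an auxiliary subunit that sets the dendritic trafficking and gating of HCN channels, the carriers of the h-current in CA1 dendrites. Wfs1 encodes wolframin, a membrane protein of the endoplasmic reticulum that is mutated in human Wolfram syndrome, and Man1a encodes a Golgi alpha-mannosidase that trims N-linked glycans. Fibcd1 encodes a membrane receptor with a fibrinogen-like domain that binds acetylated sugars, and Pou3f1 encodes a POU-domain transcription factor also known as SCIP or Oct-6. Mpped1 encodes a protein with a metallophosphoesterase domain, and Fam84a, now named Lratd1, belongs to the LRAT-domain family. All libraries were made from dissected bulk CA1 tissue and none from another field for comparison. Restriction of the 7 genes to CA1 neurons is therefore background here and was not tested. Markers of neighbouring fields were also read in these libraries, as given below.

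The 7 genes lie on 7 chromosomes, with positions given on GRCm38 as in the deposited tables, all on the reverse strand except Mpped1 and Pou3f1. Wfs1 (ENSMUSG00000039474) spans chr5:36966104-36988982, Fibcd1 (ENSMUSG00000026841) chr2:31813290-31846005 and Pex5l (ENSMUSG00000027674) chr3:32949408-33143247. Fam84a (ENSMUSG00000020607) spans chr12:14147599-14152038 and Mpped1 (ENSMUSG00000041708) chr15:83779467-83858494. Pou3f1 (ENSMUSG00000090125) spans chr4:124657646-124660655 and Man1a (ENSMUSG00000003746) chr10:53904788-54075796. All are protein coding. The library kit does not mark the strand, and exons of Pex5l overlap those of the antisense gene 4930419G24Rik, whose median was 2 reads per library. They also overlap exons of the antisense gene Gm37459, which was not among the genes counted, so its reads are not known.

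RefSeq windows of GRCm38.p6 were at hand for 5 of the 7 genes. The 250 bases before the RefSeq start are shown for the 3 genes among them that were lower in cKO mice over both exposures (Fam84a, Mpped1, Man1a) and for Wfs1, lower after novelty, 5′ to 3′ on the gene's strand. RefSeq starts can differ from the gene positions given above. The Mpped1 window shown lies wholly within the gene span given there, and the Man1a window lies partly within its span. Capitals mark GGGCGG, the GC box, on either strand (CCGCCC where it lies on the opposite strand).
Fam84a, chr12:14152039-14152288, reverse strand: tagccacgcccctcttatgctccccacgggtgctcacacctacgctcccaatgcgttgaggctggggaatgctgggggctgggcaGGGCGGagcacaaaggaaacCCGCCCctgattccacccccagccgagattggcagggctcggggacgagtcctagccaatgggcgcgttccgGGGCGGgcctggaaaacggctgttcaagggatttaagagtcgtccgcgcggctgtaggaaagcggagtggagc
Mpped1, chr15:83779773-83780022, forward strand: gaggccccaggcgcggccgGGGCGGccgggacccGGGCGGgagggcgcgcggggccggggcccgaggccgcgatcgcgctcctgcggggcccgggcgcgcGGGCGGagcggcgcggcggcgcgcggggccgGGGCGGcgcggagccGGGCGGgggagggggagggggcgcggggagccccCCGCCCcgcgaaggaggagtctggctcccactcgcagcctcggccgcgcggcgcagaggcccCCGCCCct
Man1a, chr10:54075738-54075987, reverse strand: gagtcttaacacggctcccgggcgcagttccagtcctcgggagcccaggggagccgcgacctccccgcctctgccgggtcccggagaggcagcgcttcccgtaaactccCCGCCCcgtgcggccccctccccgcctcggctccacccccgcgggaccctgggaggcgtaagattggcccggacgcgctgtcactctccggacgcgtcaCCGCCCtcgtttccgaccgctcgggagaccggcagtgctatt
Wfs1, chr5:36988983-36989232, reverse strand: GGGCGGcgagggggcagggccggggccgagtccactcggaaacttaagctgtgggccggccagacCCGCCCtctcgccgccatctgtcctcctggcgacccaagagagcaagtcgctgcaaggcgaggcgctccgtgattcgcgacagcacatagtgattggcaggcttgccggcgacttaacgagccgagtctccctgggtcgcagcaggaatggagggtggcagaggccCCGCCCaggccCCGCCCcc
The Fam84a window had 3 GC boxes, the first Mpped1 window 7, the Man1a window 2 and the Wfs1 window 4, and the Fibcd1 window, not printed, had 1. Of all 32851 RefSeq windows of this length, 32.7% had at least 1. The 5 windows were rich in G and C, at 64.8% in Fam84a, 88.8% in Mpped1, 72.4% in Man1a, 69.6% in Wfs1 and 71.6% in Fibcd1, against a median of 52.4% over all windows. A second annotated start of Mpped1 had 46.8% and no GC box. None of the windows held the letters TGACGTCA (a CRE, in 1.55% of all windows), ATGCAAAT (the octamer bound by POU factors, in 1.6%) or TATAAA (in 12.4%), each searched on both strands.

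Reads assigned to genes numbered 10.7 to 35.8 M (mega) per library. Kat2a, the targeted gene, averaged 36.18 ± 2.42 CPM (reads per M assigned reads, with library sizes adjusted by TMM) in naive cKO mice and 63.57 ± 3.98 CPM in naive control mice (SD, n = 6 each). After novelty it averaged 35.14 ± 2.26 CPM in 7 cKO libraries and 60.22 ± 3.57 CPM in 5 control libraries. No cKO library reached the level of any control library. Replicates are libraries with their own number in the labels, which do not say whether each is a separate animal, so the p-values measure the spread between libraries. In bulk tissue, fewer cells of a type and less RNA per cell cannot be told apart.

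All 7 genes were well measured, from 508 reads for Pou3f1 in its lowest library to 14456 reads for Mpped1 in its highest. Per kilobase of exon, Mpped1 was the most abundant of the 7 in naive cKO mice at 93.14 ± 6.99 CPM per kb (SD, n = 6). Wfs1, Fibcd1 and Pex5l followed, between 40.34 and 49.09 CPM per kb, and Fam84a, Pou3f1 and Man1a lay between 12.69 and 15.6 CPM per kb, with Man1a last. In naive control mice Mpped1 again stood first at 103.8 ± 9.56 CPM per kb (SD, n = 6). Wfs1 at 51.17 ± 10.4, Fibcd1 at 49.04 ± 7.73 and Pex5l at 48.69 ± 2.50 CPM per kb came next in those control mice, with overlapping ranges of mean ± SD. Fam84a at 18.79 ± 1.38, Man1a at 15.84 ± 2.60 and Pou3f1 at 14.38 ± 2.13 CPM per kb formed their lowest set, in which the ranges of neighbours overlapped in the same way. Across the 4 groups, these levels placed Mpped1 at percentile 97.7 to 97.8 of 16542 expressed genes and Man1a at percentile 71.9 to 79.2.

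**Figure D1:**
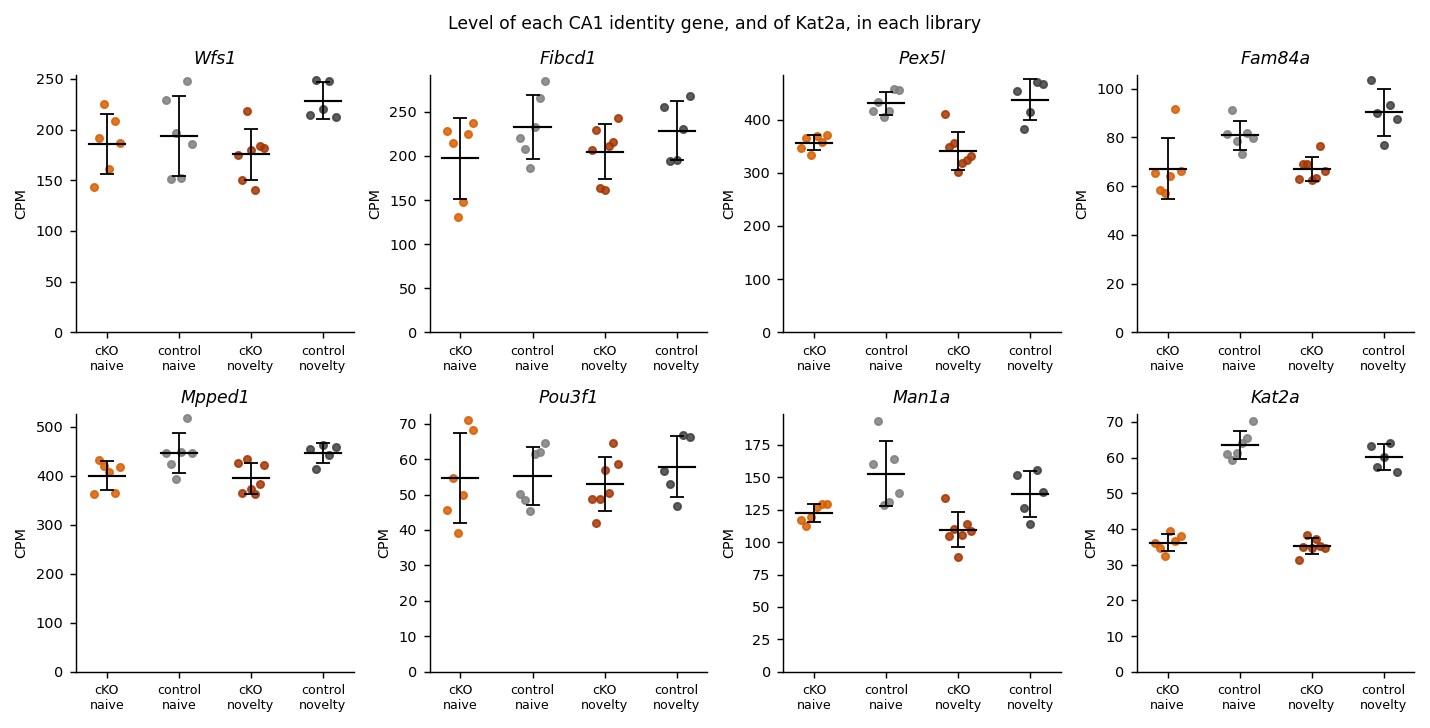
Level in CPM (y axis, from 0) of each of the 7 CA1 identity genes and of Kat2a in every library, by genotype and exposure (x axis); points are libraries, and bars are the mean with its SD. Kat2a separates the genotypes completely. Pex5l does so in naive mice and Fam84a after novelty, while Wfs1, Fibcd1, Mpped1, Pou3f1 and Man1a overlap in every comparison.

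The first comparison asked how levels of CA1 identity transcripts differ with Kat2a. With both exposures averaged, 4 of the 7 genes were lower in cKO mice than in control mice by the quasi-likelihood F test of edgeR, at an adjusted p (Benjamini-Hochberg, over all 16744 genes tested) under 0.05, and none was higher. These were Fam84a, Man1a, Pex5l and Mpped1, with log2 fold changes of -0.35, -0.32, -0.32 and -0.17. In this comparison 6.32% of all genes were lower and 5.72% were higher. As folds of the control level, the 4 differences ran from 0.786 for Fam84a to 0.891 for Mpped1. All 7 fitted values were below 0, where 48% of all genes were, and the median of the 7 was -0.22 against 0.01 over all genes. The 7 genes were chosen with earlier results of these data known, so these shares describe the list and do not test it. The averaged comparison uses the libraries of both pairwise genotype comparisons, so its directions are not independent of theirs. The labels number the libraries of a group without tying the numbers to a batch. In libraries numbered 1 to 3 alone, Fam84a and Pex5l passed, at -0.45 and -0.21, while Man1a at -0.31 and Mpped1 at -0.09 did not. In those numbered 4 and above Pex5l, Man1a and Mpped1 passed, at -0.42, -0.33 and -0.24, and Fam84a at -0.25 (edgeR adjusted p = 0.199) did not.

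Pex5l, the TRIP8b gene, was lower in cKO mice both naive and after novelty. It had 332.6, 361.3 and 370.3 CPM as the lowest, median and highest level of naive cKO mice, against 405.4, 424.8 and 458.4 CPM in naive control mice. Every naive cKO library thus lay below every naive control library, which was so for 1.08% of genes. For cKO over control in naive mice the log2 fold change came to -0.27 (SE 0.04, 95% interval -0.36 to -0.18, edgeR adjusted p = 0.0112), and Pex5l was the only member that passed in naive mice, where 0.801% of all genes did and 0.495% were lower. After novelty it had 301.0, 332.2 and 409.6 CPM in cKO mice, against 381.7, 415.2, 454.1, 467.2 and 470.4 CPM in control mice. Here 1 cKO library overlapped the lowest control library, and the difference was -0.36 in log2 (SE 0.07, edgeR adjusted p = 0.0106). Averaged over exposures it was -0.32 (SE 0.04, edgeR adjusted p = 1.76e-05).

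TRIP8b acts on HCN channels, and the channel gene Hcn2 was lower as well. Hcn2 averaged 66.09 CPM in naive cKO mice and 73.89 CPM in naive control mice, and 64.69 CPM in cKO mice and 74.17 CPM in control mice after novelty. Its averaged difference was -0.18 in log2 (SE 0.04, edgeR adjusted p = 0.00349), and it passed also after novelty alone, at -0.19. Hcn3 at 0.09 and Hcn4 at 0.08 did not pass. Pex5, the peroxisomal import receptor gene from which Pex5l takes its name, had -0.04 (SE 0.03) and did not pass.

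Fam84a had the largest averaged difference of the 7 genes. After novelty it had 62.47, 66.3 and 76.5 CPM as the lowest, median and highest level in cKO mice, against 77.05, 87.72, 90.24, 93.26 and 103.4 CPM in control mice. The groups did not overlap, which was so in this direction for 1.7% of genes, and cKO over control came to -0.43 in log2 (SE 0.07, 95% interval -0.57 to -0.29, edgeR adjusted p = 0.00203). After novelty 4.53% of all genes passed, and 2.4% of all genes were lower. In naive mice it had 57.25, 64.8 and 91.87 CPM in cKO mice, against 73.09, 80.51 and 91.23 CPM in control mice. There 5 of 6 cKO libraries lay below all control libraries while the last exceeded them all, and the fitted value of -0.26 (SE 0.10, edgeR adjusted p = 0.251) did not pass. Without that library, cKO naive library 5, it was -0.38 with an edgeR adjusted p of 0.0149. Averaged over exposures Fam84a had -0.35 (SE 0.06, edgeR adjusted p = 0.000652). Its paralogue Fam84b was lower too, at -0.47 averaged (SE 0.12, edgeR adjusted p = 0.0119).

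Markers of dentate granule neurons, which lie next to CA1, were looked at beside Fam84a. After novelty 11 of 12 dentate markers had a fold change below 0 in cKO mice and none passed, and their summed level was 290.9 to 466.5 CPM in cKO mice against 354.0 to 610.3 CPM in control mice. In naive mice 5 of 12 were below 0, and the sums were 312.8 to 546.4 CPM in cKO mice against 327.8 to 506.4 CPM in control mice. None of the dentate markers was at 0 in any library. Their part in the Fam84a difference was not tested.

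Man1a, the Golgi mannosidase gene, was lower by a similar amount with a wider spread. It had 112.5, 123.2 and 129.5 CPM in naive cKO mice, against 128.9, 149.2 and 193.8 CPM in naive control mice. After novelty it had 88.72, 108.8 and 134.3 CPM in cKO mice, against 114.1, 126.0, 138.5, 152.0 and 155.9 CPM in control mice. The groups overlapped in both settings, and neither pairwise fold change passed (log2 -0.31, edgeR adjusted p = 0.111 in naive mice; -0.32, edgeR adjusted p = 0.0704 after novelty). The averaged fold change of -0.32 (SE 0.07, 95% interval -0.46 to -0.18, edgeR adjusted p = 0.00305) did pass. Of 12 fits after novelty without 1 library, Man1a passed in 2. These were the fits without cKO novelty library 1 (-0.38, edgeR adjusted p = 0.0240) and without control novelty library 3 (-0.38, edgeR adjusted p = 0.0365). The highest edgeR adjusted p of the 12 fits was 0.143.

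Of 10 other genes of N-glycan trimming, 3 passed in the averaged comparison, 2 of them higher. These were Ganab and Prkcsh, the subunits of glucosidase II in the endoplasmic reticulum, at 0.09 (SE 0.03, edgeR adjusted p = 0.0378) and 0.16 (SE 0.05, edgeR adjusted p = 0.0263). Of 24 fits without 1 library, Ganab passed in 11 and Prkcsh in 21. Mgat2, a Golgi glycosyltransferase gene, was lower at -0.11 (SE 0.03, edgeR adjusted p = 0.0129). The other class I mannosidase genes did not pass, with -0.07 for Man1a2, 0.04 for Man1b1 and 0.08 for Man1c1. The list median was 0.02.

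Mpped1, the most abundant member, was lower by the smallest amount of the 4. It had 361.6, 412.1 and 431.4 CPM in naive cKO mice, against 394.0, 446.2 and 518.1 CPM in naive control mice. After novelty it had 362.2, 382.2 and 433.0 CPM in cKO mice, against 412.4, 441.0, 454.3, 458.9 and 462.9 CPM in control mice. Groups overlapped in both settings. In log2 it had -0.16 for cKO over control in naive mice (edgeR adjusted p = 0.296), -0.17 after novelty (edgeR adjusted p = 0.0677) and -0.17 averaged (SE 0.04, 95% interval -0.25 to -0.08, edgeR adjusted p = 0.0106). Of 12 fits after novelty without 1 library, Mpped1 passed in 1, that without cKO novelty library 3 (-0.20, edgeR adjusted p = 0.0292). The highest edgeR adjusted p of the 12 fits was 0.1535. Its paralogue Mpped2 had -0.07 averaged (SE 0.05) and did not pass.

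Wfs1 differed between genotypes after novelty but its call was weak. It had 139.9, 179.4 and 218.2 CPM in cKO mice after novelty, against 212.3, 214.0, 220.1, 247.9 and 248.8 CPM in control mice. All cKO libraries except 1 lay below the control libraries, and cKO over control came to -0.38 in log2 (SE 0.09, 95% interval -0.57 to -0.19, edgeR adjusted p = 0.0316). It missed the threshold in 7 of 12 fits without 1 library, namely control novelty libraries 2, 3, 4 and 5 and cKO novelty libraries 1, 2 and 7, with log2 fold changes from -0.44 to -0.33 over all 12. The highest edgeR adjusted p was 0.0922, without control novelty library 2. In naive mice it had 143.4, 189.0 and 224.7 CPM in cKO mice, against 151.4, 190.9 and 247.7 CPM in control mice. The naive groups overlapped almost entirely, and the fold change was -0.06 (SE 0.14, 95% interval -0.36 to 0.24). It turned to 0.02 without control naive library 5 and to 0.01 without cKO naive library 1. The averaged value of -0.22 (SE 0.09, edgeR adjusted p = 0.102) did not pass.

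Of 6 genes whose products are linked to wolframin or to its calcium and stress functions, 2 were lower in the averaged comparison. Atp1b1, a sodium pump subunit gene, had -0.19 (SE 0.03, edgeR adjusted p = 0.000104) and passed in naive mice and after novelty as well. Its naive call was near the threshold (edgeR adjusted p = 0.0437) and held in 2 of 12 fits without 1 library. The call after novelty held in 9 of 12 such fits. Itpr1, the gene of the inositol trisphosphate receptor of the endoplasmic reticulum, had -0.14 (SE 0.04, edgeR adjusted p = 0.0332). Cisd2, Atp2a2, Syvn1 and Atf6 did not pass, and the list median was -0.10.

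Fibcd1 and Pou3f1 showed no genotype difference that passed. Fibcd1 had 131.2, 220.2 and 237.3 CPM in naive cKO mice, against 185.9, 226.8 and 284.7 CPM in naive control mice. After novelty it had 161.4, 211.2 and 243.5 CPM in cKO mice, against 194.5, 195.8, 230.6, 256.1 and 267.8 CPM in control mice. Its averaged difference was -0.20 in log2 (SE 0.10, 95% interval -0.41 to 0.02, edgeR adjusted p = 0.225), an interval that holds both 0 and the -0.32 of Pex5l. Pou3f1 had 39.13, 52.25 and 71.18 CPM in naive cKO mice, against 45.48, 55.76 and 64.46 CPM in naive control mice. After novelty it had 42.1, 50.45 and 64.61 CPM in cKO mice, against 46.72, 53.01, 56.55, 66.32 and 66.69 CPM in control mice. Both genes overlapped widely between genotypes. For Pou3f1 the averaged value was -0.07 (SE 0.10, 95% interval -0.27 to 0.13, edgeR adjusted p = 0.700), and its paralogues Pou3f2, Pou3f3 and Pou3f4 had -0.12, -0.06 and 0.17 without passing. Its naive value of -0.01 turned positive, up to 0.07, without control naive library 4, 5 or 6 or without cKO naive library 1, 3 or 4.

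**Figure D2:**
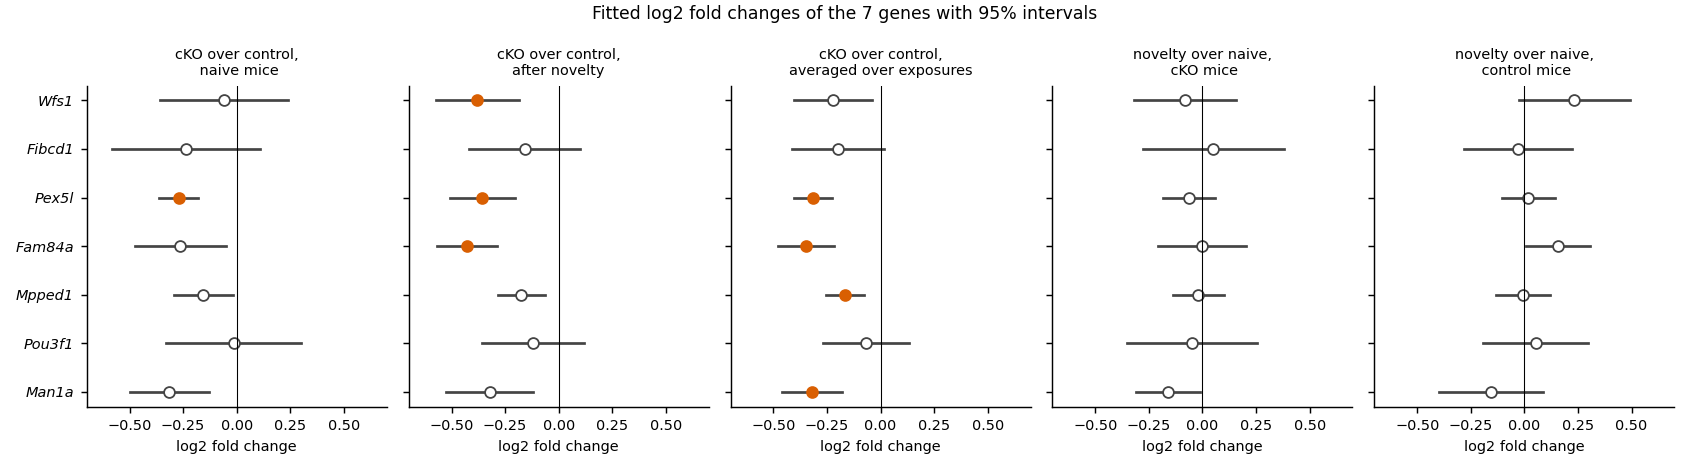
Log2 fold change (x axis) of each of the 7 genes (y axis) in 5 comparisons, as points with 95% intervals; filled points passed the edgeR test at an adjusted p below 0.05. All 7 points lie below 0 in the 3 comparisons of cKO with control mice, and no point is filled in the comparisons of novelty with naive mice.

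The second comparison asked which genes respond to a 15 min exposure to novelty, and none of the 7 passed in either genotype. In cKO mice 0 of 7 passed in edgeR, limma-voom or DESeq2, where 2.41% of all genes did in edgeR, and the fitted log2 values of novelty over naive ran from -0.16 for Man1a to 0.05 for Fibcd1. Man1a averaged 109.5 ± 13.6 CPM after novelty (n = 7) and 122.4 ± 7.06 CPM in naive cKO mice (n = 6), and its unadjusted edgeR p was 0.0382 with an edgeR adjusted p of 0.322. It was the 1 member under an unadjusted 0.05 there, as 13.9% of all genes were. In control mice 0 of 7 passed in any of these 3 tools, where 1.22% of all genes did in edgeR, and the values ran from -0.16 for Man1a to 0.23 for Wfs1. Wfs1 averaged 228.6 ± 18.2 CPM after novelty (n = 5) and 193.8 ± 39.3 CPM in naive control mice (n = 6), with overlapping libraries (edgeR adjusted p = 0.526). Fam84a averaged 90.34 ± 9.54 CPM after novelty (n = 5) and 80.96 ± 5.93 CPM in naive control mice (n = 6), at an unadjusted edgeR p of 0.0392 and an edgeR adjusted p of 0.414. It was the 1 member under an unadjusted 0.05 there, as 11% of all genes were. Averaged over genotypes, 0 of 7 passed in edgeR, where 6.55% of all genes did. Man1a alone of the 7 was under an unadjusted 0.05 in that average, as 17.6% of all genes were (-0.16, edgeR adjusted p = 0.213).

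The genotype difference was not shown to depend on exposure for any of the 7 genes. The interaction passed for 0 of 16744 genes in edgeR (0.0%), and for 0 in limma-voom and DESeq2, although 688 of them, or 4.11%, had an unadjusted p under 0.05. Among the 7 the largest interaction was that of Wfs1, at -0.32 (95% interval -0.68 to 0.04, edgeR unadjusted p = 0.0800), with none under 0.05 unadjusted. Calls of Wfs1 and Fam84a after novelty and not in naive mice therefore do not show a larger difference after novelty.

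The lower levels of CA1 identity genes were set beside other marker lists in the averaged genotype comparison. Of 5 other CA1-enriched genes, 3 were lower. Calb1, which encodes the calcium buffer calbindin, averaged 118.7 CPM in naive cKO mice and 151.9 CPM in naive control mice, and had -0.32 averaged (SE 0.06, edgeR adjusted p = 0.000393). Ndst4, a heparan sulfate sulfotransferase gene, had -0.43 (SE 0.08, edgeR adjusted p = 0.00123), and Lefty1, a secreted Nodal inhibitor gene, had -0.45 (SE 0.12, edgeR adjusted p = 0.0114). Spink8 at 0.06 did not pass. Calb1 also marks dentate granule neurons and interneurons. The list median was -0.32, and its summed level was 212.0 to 239.5 CPM in naive cKO mice against 240.2 to 287.7 CPM in naive control mice. After novelty the sums were 207.0 to 245.4 CPM in cKO mice and 258.4 to 324.9 CPM in control mice. Calb1 was the most abundant gene in these sums. Such a lack of overlap was not particular to CA1-enriched genes. The wolframin-linked list summed to 3850 to 4215 CPM in naive cKO mice and 4356 to 4773 CPM in naive control mice. Sums of the 7 members overlapped in naive mice, at 1309 to 1476 CPM in cKO mice and 1434 to 1798 CPM in control mice.

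Among 5 genes enriched in ventral CA1, 2 were lower, Grp at -0.33 and Htr2c at -0.38 (edgeR adjusted p = 0.0106 and 0.00180), and the list median was -0.07. Of 9 general pyramidal neuron genes, 3 were lower and 1 was higher. Nrn1, which encodes the synaptic growth factor neuritin, had -0.48 (SE 0.06, edgeR adjusted p = 1.25e-05), and Camk2a, whose promoter drives the Cre, had -0.24 (SE 0.05, edgeR adjusted p = 0.00365). Itpka, an inositol trisphosphate kinase gene of dendritic spines, had -0.28, and Neurod1, a neuronal transcription factor gene, was higher at 0.30 (SE 0.08, edgeR adjusted p = 0.00892). The list median was -0.10. The other 5, among them the vesicular glutamate transporter gene Slc17a7, did not pass.

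Markers of the neighbouring fields lay on both sides of 0. For CA2, 0 of 5 genes passed and the median was 0.24. Of 8 CA3 genes, 2 were lower, Coch at -0.40 and Dkk3 at -0.10, while 6 were above 0 and the median was 0.15. In the dentate list 2 of 12 were lower, C1ql2 at -0.86 and Trpc6 at -0.43, with a median of -0.14. None of 3 subiculum genes passed (median -0.25), and of 5 neocortical genes Lamp5 was lower at -0.33, a gene that hippocampal neurons express as well.

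Markers of other cell types also moved with genotype. In the oligodendrocyte list all 7 genes were below 0 and 5 were lower, among them Cnp, Mobp, Mog and Opalin, from -0.34 to -0.21, with a median of -0.27. Their summed level was 4035 to 5155 CPM in naive cKO mice and 4852 to 5114 CPM in naive control mice, and 3095 to 5969 CPM in cKO mice and 4503 to 5478 CPM in control mice after novelty. In the interneuron list 3 of 9 were lower, Gad1, Gad2 and Pvalb, from -0.30 to -0.11. None of 7 astrocyte genes, 6 microglia genes, 5 endothelial genes or 4 choroid plexus genes passed, with medians of -0.05, 0.06, -0.16 and -0.21. Of all these markers Folr1, of the choroid plexus list, was the one with a level of 0 in any library. The part of cell type shares in the differences of the 7 genes was not tested.

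**Figure D3:**
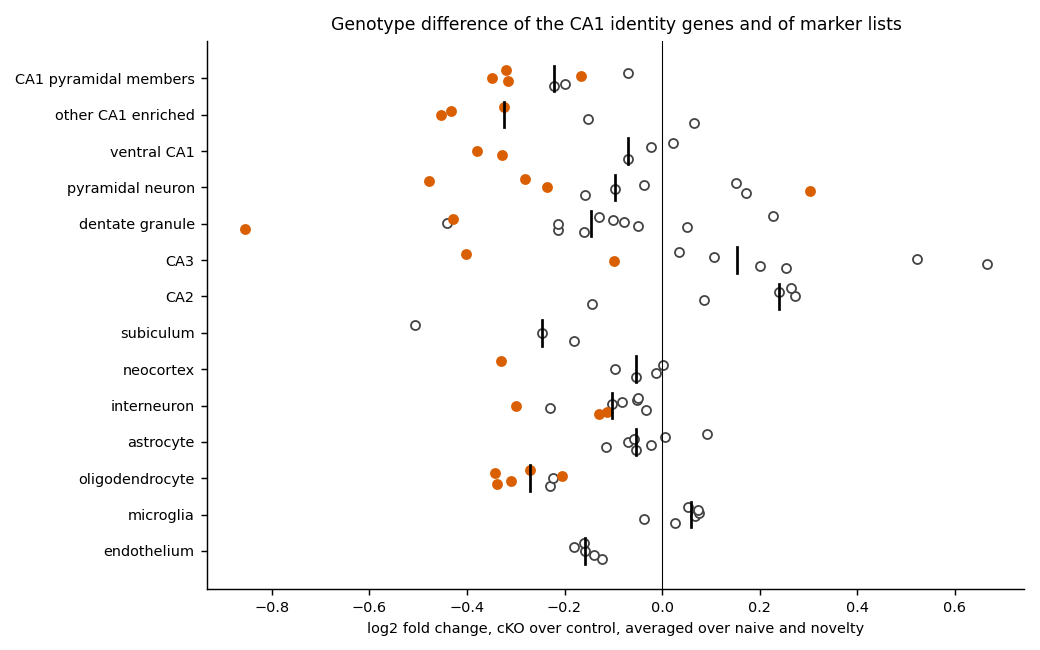
Log2 fold change of cKO over control mice averaged over exposures (x axis) for the 7 CA1 identity genes and for 13 marker lists (y axis); each point is a gene, filled where it passed the edgeR test, and vertical bars are medians. The CA1 members and the other CA1-enriched genes have medians of -0.22 and -0.32, CA2 and CA3 medians are above 0, and the oligodendrocyte median is -0.27.

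Libraries of the same group also differed from each other in these genes. With group means removed from log2 CPM, 2 of 21 gene pairs passed over 24 libraries, by a two-sided permutation test within groups with 100000 permutations and adjusted over the 21 pairs. Pex5l and Man1a had r = 0.62 (permutation adjusted p = 0.0417) and rho = 0.57 (permutation adjusted p = 0.0860). Fam84a and Man1a had r = 0.51 (permutation adjusted p = 0.0417) and rho = 0.63 (permutation adjusted p = 0.0307). The median r of the 21 pairs was 0.22 and 19 were above 0. Without the 2 libraries farthest from the median of the first gene, r was 0.51 and 0.59 for the 2 pairs and neither passed after adjustment in these fewer libraries. Within libraries numbered 1 to 3 in the labels r was 0.64 and 0.54, and within those numbered 4 and above it was 0.74 and 0.45.

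Across 98 pairs of a member and a marker list, 7 passed by the same test, adjusted over the 98. Fam84a followed the dentate granule list (r = 0.70, rho = 0.69, permutation adjusted p = 0.0118 and 0.0225) and with the general pyramidal list (r = 0.70, rho = 0.60, permutation adjusted p = 0.0284 and 0.0461). Mpped1 ran against the CA3 list (r = -0.78, rho = -0.74, permutation adjusted p = 0.0118 and 0.0225). Pex5l followed the other CA1-enriched genes (r = 0.59, rho = 0.64, permutation adjusted p = 0.0483 and 0.0231). Fibcd1 and Fam84a ran against the neocortical list (r = -0.71 and -0.64, rho = -0.69 and -0.52), and Pou3f1 against the endothelial list (r = -0.66, rho = -0.68), with permutation adjusted p of 0.0277, 0.0390 and 0.0277 for r and 0.0225, 0.0982 and 0.0225 for rho. Without the 2 farthest libraries r was 0.56, 0.45, -0.70, 0.67, -0.57, -0.46 and -0.68 in the same order, and none of the 7 passed after adjustment. Within libraries numbered 1 to 3 the correlation of Pou3f1 with the endothelial list was -0.06, while the other 6 kept their sign, with the weakest r at 0.60 for Fam84a with the pyramidal list. Within those numbered 4 and above all 7 kept their sign, with the weakest r at -0.665 for Pou3f1. All levels of a library share its depth and its dissection.

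**Figure D4:**
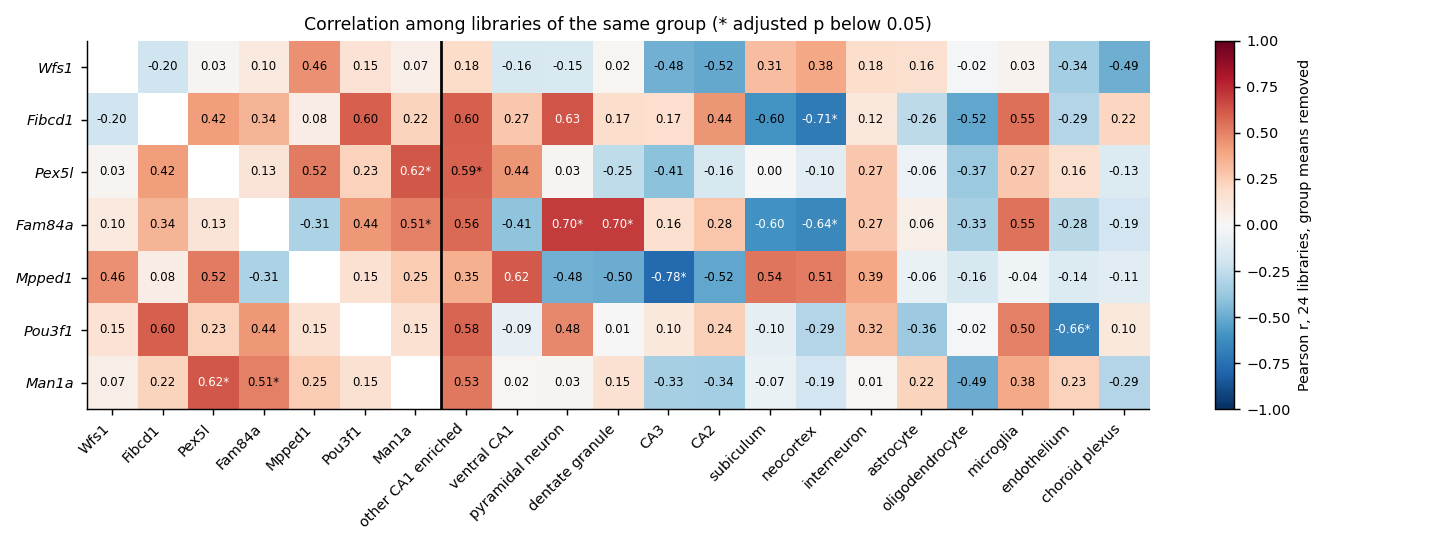
Pearson r over 24 libraries with group means removed, for each of the 7 genes (rows) with the other genes and with 14 marker lists (columns, parted by the black line); an asterisk marks a permutation p below 0.05 adjusted within 21 pairs or 98 pairs. Pairs of members are mostly pale, with a median of 0.22. The darkest cells are Mpped1 with CA3 at -0.78, Fibcd1 with the neocortical list at -0.71 and Fam84a with the dentate and pyramidal lists at 0.70.

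**Figure D5:**
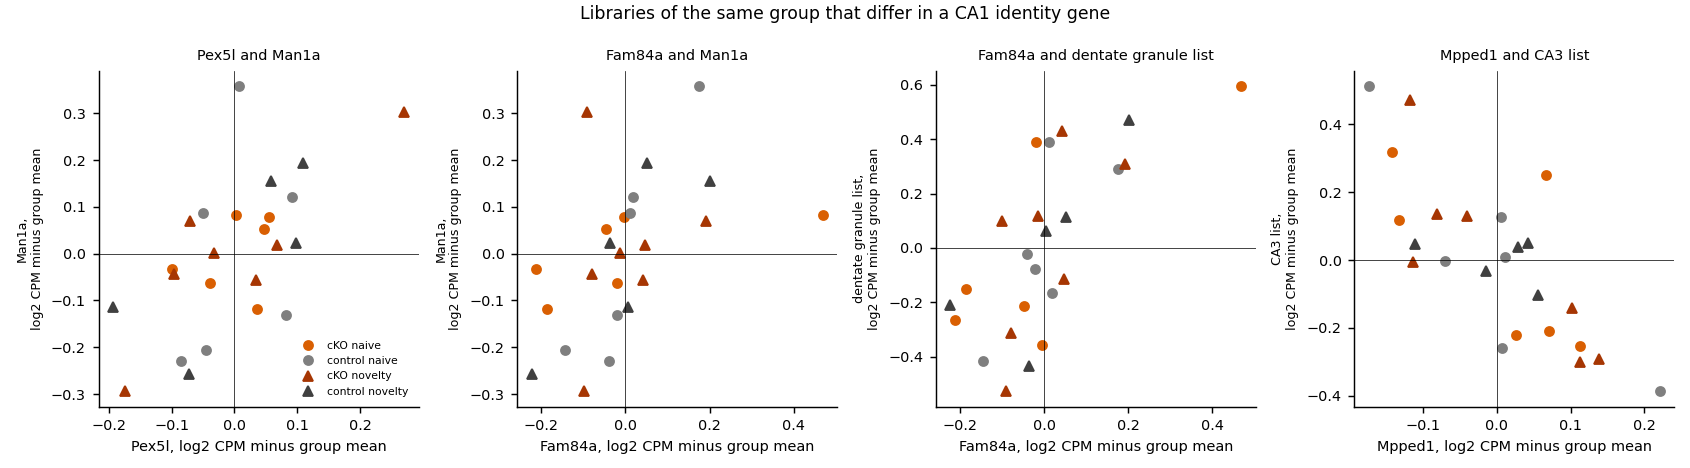
Log2 CPM minus the group mean in each of 24 libraries, for Pex5l with Man1a, Fam84a with Man1a, Fam84a with the dentate granule list and Mpped1 with the CA3 list; circles are naive and triangles novelty libraries, orange to brown for cKO and grey for control. cKO naive library 5 is the point at the far right for Fam84a, high in the dentate list and near the others in Man1a.

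The genes most alike to each member, by the same group-centred r over 24 libraries among 16744 genes, were not other members. For Pex5l they were Cadps2 (r = 0.80), Ndst4 (0.76) and Lmo4 (0.76), of which Ndst4 is among the CA1-enriched genes above. For Fam84a they were Fbxo48 (0.89), Arpc2 (0.87) and Epha7 (0.84), and for Man1a Lrrc32 (0.83), Kat6b (0.82) and Lmo3 (0.81). Mpped1 was most like Gap43 (0.85), Timp2 (0.84) and Cadm1 (0.84), and Wfs1 most like Grm2 (0.77), Mapk4 (0.77) and Csmd1 (0.74). Fibcd1 was nearest to Arhgef28 (0.88), Tle3 (0.86) and Wscd2 (0.85), and Pou3f1 to Gpr27 (0.89), Ubald1 (0.88) and Vstm2b (0.87). Some of these genes had low levels, with means over the 24 libraries of 0.899 CPM for Fbxo48, 2.10 for Lrrc32 and 5.18 for Gpr27. The others averaged 30.97 CPM or more. The 99th percentile of r over all genes lay between 0.51 for Pex5l and 0.75 for Pou3f1, and the genes named are those with the highest r, given with no test.

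The authors' deposited table of each comparison, made with DESeq2, lists the same 7 genes. In naive mice it gives adjusted p-values of 2.59e-07 for Pex5l and 0.0307 for Man1a, with log2 fold changes of -0.27 and -0.31 for cKO over control, and no other member under 0.05. After novelty the authors' deposited table gives 7.84e-07 for Fam84a, 0.000194 for Pex5l, 0.00207 for Wfs1, 0.0156 for Man1a and 0.0267 for Mpped1. The authors' deposited tables of novelty against naive list no member under 0.05. The share of all genes under 0.05 in the deposited tables is not given here, so these member calls have no background beside them. In the DESeq2 fit made here, 465 genes passed in naive mice and 1168 after novelty, against 131 and 733 in edgeR.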

How the data were processed

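Poly(A) RNA libraries of dissected CA1 tissue were made with a TruSeq kit that does not mark strand, per the labels' protocols, which name cluster kits of paired-end and of single-end sequencing and do not assign them to libraries. The authors deposited a table of raw read counts per gene for each of 24 libraries, and STAR 2.3.0, HTSeq, DESeq2 and GRCm38.p2 are named in the submitters' processing notes. For the counting, the annotation release and strand setting are not stated in the labels. The authors also deposited 4 pairwise DESeq2 tables with a base mean (a signal of normalised counts), a log2 fold change with its SE, a p-value and an adjusted p-value, per the file headers. The sign of the deposited log2 fold change, read from the deposited group means, is cKO over control or novelty over naive.

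Summary rows were left out, namely reads with no gene (7.58 to 10.4% of a table), with an ambiguous gene (1.06 to 1.18%) or with several positions (14.8 to 18.0%). Counts were fitted over all genes with the quasi-likelihood test of edgeR 4.0.16 in R 4.3.3 (TMM, filterByExpr at a minimum count of 10, Benjamini-Hochberg, adjusted p below 0.05), each pairwise comparison on its own groups and the averaged effects and the interaction on all 24 libraries. CPM values were scaled after TMM, and lengths are the union of exons in a GENCODE annotation of GRCm38. Correlations used log2 CPM (prior count 2) with group means removed, and 100000 permutations within groups, with a list taken as its mean log2 CPM. The alternatives were other scalings, no filter, DESeq2 1.42.0, limma-voom 3.58.1, a replicate block, the library number as a class, and each library left out. The scripts were tested on simulated data. Samples were grouped by the labels. Named genes are the 7 members, the 3 genes most alike to each, paralogues and partners, and list genes that passed. Some list genes are not reported here. The members, lists and rules were chosen with earlier results of these data known.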

Additional observations from a re-analysis of the deposited data

Results flagged for a closer look

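Among 28 sets of levels, 7 genes in 4 groups, 1 held a library far from the others, and chance alone sets apart about 1 in 20 such sets. Fam84a had 91.87 CPM in cKO naive library 5, against 57.25 to 66.17 CPM in the other 5 naive cKO libraries. The gap to the nearest library was 0.742 of the whole range, past the critical value of 0.625 for 6 libraries. Without this library the naive log2 fold change of Fam84a was -0.38 instead of -0.26, and it passed the edgeR test with an adjusted p of 0.0149. The library also had the highest summed level of the dentate granule list among naive cKO libraries, at 546.4 CPM, and the part of this in its Fam84a level was not tested.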

How the results depend on the processing

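Under every alternative tried, the 4 genes lower in the averaged genotype comparison stayed below 0, and none of 231 recomputed averaged values of the 7 genes changed sign. Of 1078 recomputed values of the 7 genes in all comparisons 65 changed sign, none of them where the reported value had passed. Without any 1 library, 4 of 7 passed in the averaged comparison in 24 of 24 fits, with 1480 to 2210 genes passing in all. Some list genes called in that comparison were less steady. Of the 24 fits, Trpc6 passed in 8, Cnp in 9, Ganab in 11, Gad2 in 12, Dkk3 in 13, Opalin in 14 and Itpr1 in 15. The other list genes called there passed in 21 to 24 fits. In naive mice the fits without 1 library passed 1 to 2 members and 40 to 166 genes, after novelty 2 to 4 members and 324 to 1025 genes. Novelty passed 238 to 452 genes in cKO mice, 113 to 255 in control mice and 850 to 1262 on average in such fits, with 0 members throughout, and the interaction 0 genes and 0 members. DESeq2 passed 465 genes and 2 members (Man1a, Pex5l) in naive mice, 1168 genes and 5 members (all except Fibcd1 and Pou3f1) after novelty, 653 genes for novelty in cKO mice and 377 in control mice, with 0 members in both. Contrasts over all 24 libraries passed 322 genes in naive mice and 305 for novelty in control mice. The call of Wfs1 after novelty was lost with no filter on low counts (edgeR adjusted p = 0.0697), with the library number class as covariate (0.0521) and with all 24 libraries in the fit (0.0806).

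The labels do not say whether library numbers pair the samples. Deviations of same-numbered libraries correlated beyond 0.1 in 1 of 6 pairs in naive mice, 1 of 5 after novelty, 1 of 6 for cKO and 0 of 5 for control mice. At most 1 library per comparison correlated best with its own number. So few pairs cannot exclude a pairing. With a replicate block 70 genes passed in naive mice, 398 after novelty, 207 for novelty in cKO mice and 97 in control mice. With the block 1 member, Fam84a, passed after novelty, and the calls of Pex5l and Wfs1 there were lost (edgeR adjusted p = 0.0904 and 0.0867). Under the block Fibcd1 passed in the averaged comparison (-0.26, edgeR adjusted p = 0.0184). The block moved Fam84a to 0.0126 for novelty in cKO mice, Fibcd1 to 0.0329 for novelty in control mice and the interaction of Fibcd1 to -0.0016. Libraries numbered 1 to 3 alone passed 3 genes in naive mice, 17 after novelty, 15 and 25 for novelty in cKO and control mice, 402 in the averaged genotype comparison and 206 for averaged novelty, with 0 members in each pairwise comparison and 2 in the averaged genotype comparison. Those numbered 4 and above passed 5 genes and 0 members in naive mice, 121 genes after novelty, 70 for novelty in cKO mice, 405 in the averaged genotype comparison and 369 for averaged novelty. These subsets hold fewer libraries.

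For novelty in control mice Mpped1 came to 0.001 with the size factors of DESeq2, 0.0064 with no filter, 9e-04 with DESeq2 and 0.0078 with the number class, and Fibcd1 to 0.0067 with that class. For novelty in cKO mice Fam84a came to 0.0112 with limma-voom. In libraries numbered 1 to 3, novelty in cKO mice gave 0.0927 for Pex5l, 0.1502 for Fam84a, 0.0127 for Mpped1, 0.0038 for Pou3f1 and 0.0035 for Man1a. Novelty in control mice gave 0.0683 for Fibcd1, -0.0085 for Pex5l and 0.0684 for Mpped1 there, and the interaction -0.0129 for Fibcd1, 0.0944 for Pex5l, 0.0366 for Fam84a and 0.2987 for Man1a. In libraries numbered 4 and above, Pou3f1 came to 0.0157 in naive mice, Man1a to 0.0325 for novelty in control mice and the interaction of Mpped1 to 0.0272. Without 1 library, the naive genotype values ran from -0.1199 to 0.0231 for Wfs1 and from -0.1042 to 0.0664 for Pou3f1. Values of novelty in control mice ran from -0.0927 to 0.034 for Fibcd1, -0.0109 to 0.0727 for Pex5l, -0.0306 to 0.051 for Mpped1 and -0.0031 to 0.1206 for Pou3f1. Novelty in cKO mice ran from -0.0406 to 0.1106 for Fibcd1, -0.0426 to 0.1101 for Fam84a, -0.0456 to 0.0038 for Mpped1 and -0.1253 to 0.0435 for Pou3f1. The interaction ran from -0.0174 to 0.1381 for Fibcd1, -0.0683 to 0.0127 for Mpped1 and -0.0859 to 0.0416 for Man1a. Of the correlations, 4 pairs of members passed with the size factors of DESeq2, and 0 passed, of members or of members with lists, without the 2 farthest libraries or within either class of numbers. The cause of these changes was not tested. The lowest read count of the 7 genes in any library was 508.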
